A study of Drosophila melanogaster with 18 samples.

Results

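The genes described here are 65 Drosophila melanogaster genes that carry a CG number and no other current symbol. As a share of library counts, their RNA was at least 8 times as abundant in larval as in P14 pupal neurons of control animals. CG symbols mark genes annotated from the genome sequence that have not been given a name of their own. They were chosen from 6015 such genes in a table of 17402 genes by their level in CPM (a gene's count divided by the library's total count and multiplied by 1000000). The mean over the 3 larval control libraries had to reach 20 CPM, and the larval control mean plus 0.5 had to be at least 8 times the pupal control mean plus 0.5. The control libraries of both stages therefore chose the members, and their difference between stages is a description with no test.

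RNA had been sequenced from 18 libraries, 3 in each of 6 groups, to follow the response of neurons and of a cell line to loss of shep, which encodes an RNA-binding protein. The neuron groups were P14 pupal elav>shep-RNAi, Dcr, mCD8::GFP and P14 pupal elav>Dcr, mCD8::GFP, and elav>shep-RNAi, Dcr, mCD8::GFP and elav>Dcr, mCD8::GFP larvae of the third instar. All 4 thus carried Dicer and a membrane GFP under elav, a driver of neurons, and live neurons were sorted from them. Ages beyond the stage and the number of animals in a library were not stated in the labels. BG3 cells, 1 cell line cultured from the nervous system, were treated with dsRNA against shep or with dsRNA against GFP. Replicates were not stated to be separate cultures or animals, so each p-value reflects the spread among these libraries and no more.

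In the larval central nervous system, stem cells called neuroblasts divide asymmetrically and their daughters give rise to immature neurons, and this production ends during metamorphosis. Dividing and growing cells make many ribosomes in the nucleolus, whereas maturing neurons switch on the genes of synaptic transmission. In sorted bulk samples, fewer cells of a type and less RNA per cell cannot be told apart.

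Library totals ran from 7392299 to 10607171 counts with pupal RNAi, from 8548493 to 9445025 in their controls, from 9134690 to 10793289 with larval RNAi and from 9984725 to 12910603 in the larval controls. BG3 libraries were shallower, at 3651214 to 5081610 with shep dsRNA and 3141100 to 3203392 with GFP dsRNA. The targeted gene shep had 758 ± 94.5 CPM in pupal RNAi and 1459 ± 78.1 CPM in pupal control neurons, 618.5 ± 43.4 CPM in larval RNAi and 1717 ± 106 CPM in larval control neurons, and 217 ± 33.3 CPM with shep dsRNA and 443 ± 46.1 CPM with GFP dsRNA in BG3 cells (SD, n = 3 each). The neuronal gene elav averaged 830 CPM in pupal and 3220 CPM in larval control neurons. Most listed neuron genes went the other way, with 7 of 10 higher in pupal than in larval controls. The 10 summed to 19760 to 21020 CPM in pupal control and 10880 to 11740 CPM in larval control libraries. The 9 listed glial genes summed to 701 to 719 CPM in pupal control and 233 to 314 CPM in larval control libraries, with Eaat1 at 574 and 40.5 CPM but repo at 0.739 and 11 CPM in the same pupal and larval groups. BG3 cells had 104 CPM of elav and 0.528 CPM of the synaptic gene nSyb with GFP dsRNA, and their 10 listed hemocyte markers summed to 3006 to 3453 CPM there. Most of that sum came from Ppn, Col4a1, srp and vkg, while NimC1 and eater averaged 0.106 CPM each and He had no count.

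The rule took 7.34% of the 885 CG genes that reached 20 CPM in larval control neurons. By the same thresholds it would have taken 13.6% of the 3206 named protein-coding genes at that level. Just inside the ratio were CG12129 at 8.03, CG11417 at 8.28 and CG4511 at 8.36, and just outside it were CG15387 at 7.22, CG45071 at 7.195 and CG17078 at 7.19. Just inside the larval level were CG8460 at 20.8 CPM, CG7744 at 21.2 CPM and CG11590 at 21.9 CPM, and just outside it were CG34382 at 19.95 CPM, CG8173 at 19.7 CPM and CG9302 at 19.7 CPM.

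The members' summed level was 337 to 380.5 CPM in pupal control and 5656 to 6108 CPM in larval control libraries. Their larval over pupal ratio in control neurons ran from 8.03 to 162, with a median of 14. CG42232 was the most abundant member in larval control neurons, with 34.75 ± 3.96 CPM in pupal and 464 ± 14.9 CPM in larval controls (SD, n = 3 each). CG10555 averaged 20.1 CPM in pupal and 454 CPM in larval controls, CG1910 34.7 and 417 CPM, and CG34377 18.3 and 364 CPM in the same pupal and larval groups. The largest ratio was that of CG3408, which lies on 3L from 9506818 to 9509583 of dm6 on the minus strand and had 0.702, 1.27 and 1.16 CPM in pupal control libraries, against 242, 257.5 and 250.2 CPM in larval control libraries. Its pupal values were near or under 1 CPM, and the stages did not overlap.

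Per kilobase of exon annotated in any transcript, which allows a rough comparison of different genes, the order in larval control neurons was different. CG8860 was highest at 237 CPM per kb, followed by CG12643 at 179, CG3408 at 132 and CG1910 at 130.5 CPM per kb. Of the exonic bases of CG8860, 62.6% overlap another gene on the opposite strand, so its counts and its rank are uncertain. CG42232, whose exons cover 10901 bases, stood at 42.6 CPM per kb, and CG33978 was lowest at 3.4 CPM per kb over 14137 exonic bases. The member with the most counts was therefore not the one with the most RNA per length.

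**Figure D1:**
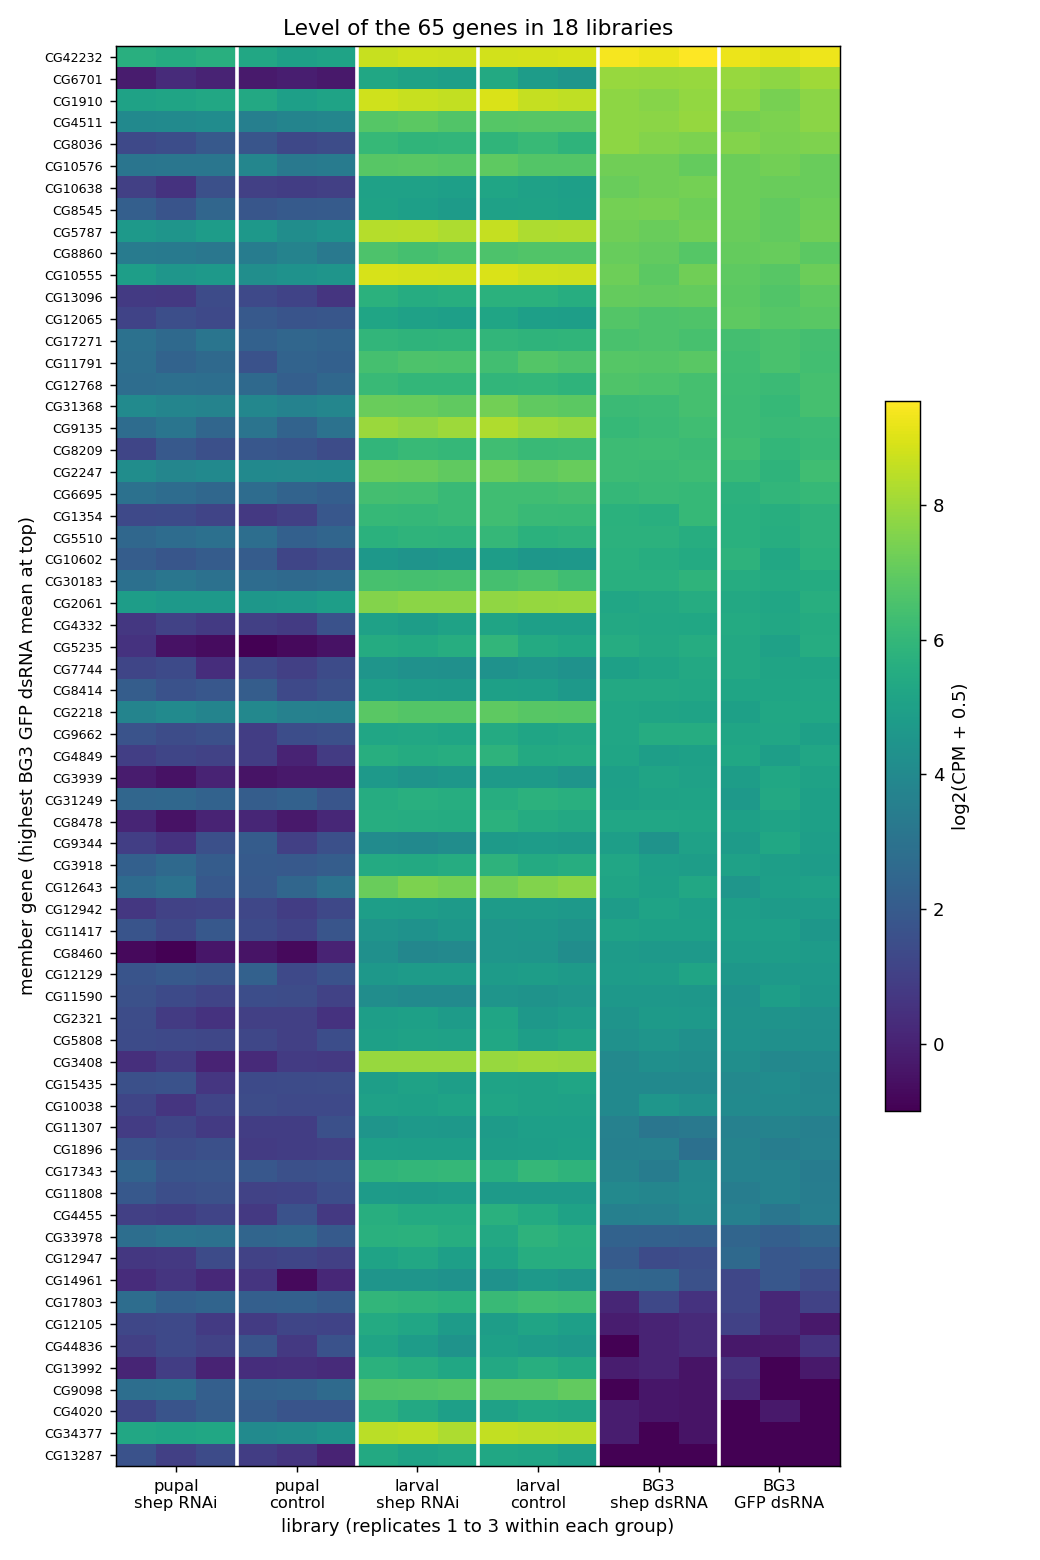
Level of each of the 65 genes as log2(CPM + 0.5), 1 row per gene and 1 column per library, with 3 libraries in each of 6 groups and rows in order of the mean in BG3 cells with GFP dsRNA. The 6 pupal columns are darker than the 6 larval columns in every row, while the 6 BG3 columns go from bright at the top to dark in the bottom rows, where 7 genes lie under 1 CPM with GFP dsRNA.

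The stage difference was also seen in the shep RNAi neurons, none of which had been used to choose the members. With 6 RNAi libraries in an edgeR quasi-likelihood test, all 65 members were lower in pupal than in larval RNAi neurons at a Benjamini-Hochberg adjusted p under 0.05, and the largest of these adjusted p-values was 1.13e-07. Of all 8376 genes tested, 44.3% were called lower, 39.4% higher and 83.7% in either direction, so that a call alone is common in this comparison. The median log2 fold change of the members was -3.19, with a range of -7.31 to -1.97, and that of all tested genes was -0.13. In CPM, which uses library totals without the scaling of the test, every pupal RNAi library was below every larval RNAi library for 65 of 65 members. The same held for 62.1% of all tested genes, and 26.4% went the other way (88.5% had no overlap in either direction). The 435 named protein-coding genes that met the same thresholds in controls were likewise all called lower, with a median of -3.39, whereas 309 of the 820 other CG genes at that larval level were called lower and 419 higher.

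CG3408 had the most negative pupal over larval fold change in RNAi neurons. Its levels were 0.849, 1.27 and 0.541 CPM in pupal RNAi libraries, against 237.5, 243 and 244 CPM in larval RNAi libraries, a log2 fold change of -7.31 with an SE of 0.148 (edgeR adjusted p = 1.46e-24). No library of either stage came near the other stage. The next were CG8460 at -6.35, CG8478 at -5.94, CG5235 at -5.79, CG3939 at -5.24 and CG6701 at -5.20 on the log2 scale. CG8460 was at 0.0943, 0 and 0.271 CPM in pupal RNAi libraries, against 18.9, 14.3 and 15.2 CPM in larval RNAi libraries.

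At the other end, CG10602 had 3.87, 3.07 and 3.65 CPM in pupal RNAi libraries, against 24.2, 21.7 and 23.4 CPM in larval RNAi libraries, a log2 fold change of -1.97 with an SE of 0.157 (edgeR adjusted p = 9.81e-12). Its groups did not overlap either. CG4511 at -2.03, CG33978 at -2.09, CG11590 at -2.19, CG8545 at -2.19 and CG2061 at -2.21 were the next least changed members. Measured by column totals as the rule does, 53 of the 65 members met both thresholds in the RNAi libraries, 55 reached the ratio and 62 reached the larval level, with ratios of 5.85 to 175 and a median of 12.8. The same thresholds in the RNAi libraries took 55 CG genes in all. The ratio was lower in RNAi than in control neurons for 51 members, which were chosen for a high ratio in the controls.

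TMM scaling, which sets libraries to a common level over most genes, raised the pupal over larval log2 fold change by 0.73 in the RNAi libraries relative to column totals. Between the control groups this shift was 0.751, and fewer genes met the rule with CPM from TMM library sizes. In the RNAi libraries the scaling changed the size of the difference as follows. With column totals the median was -3.92 for the members and -0.86 for all tested genes, and all 65 members were again called lower.

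**Figure D2:**
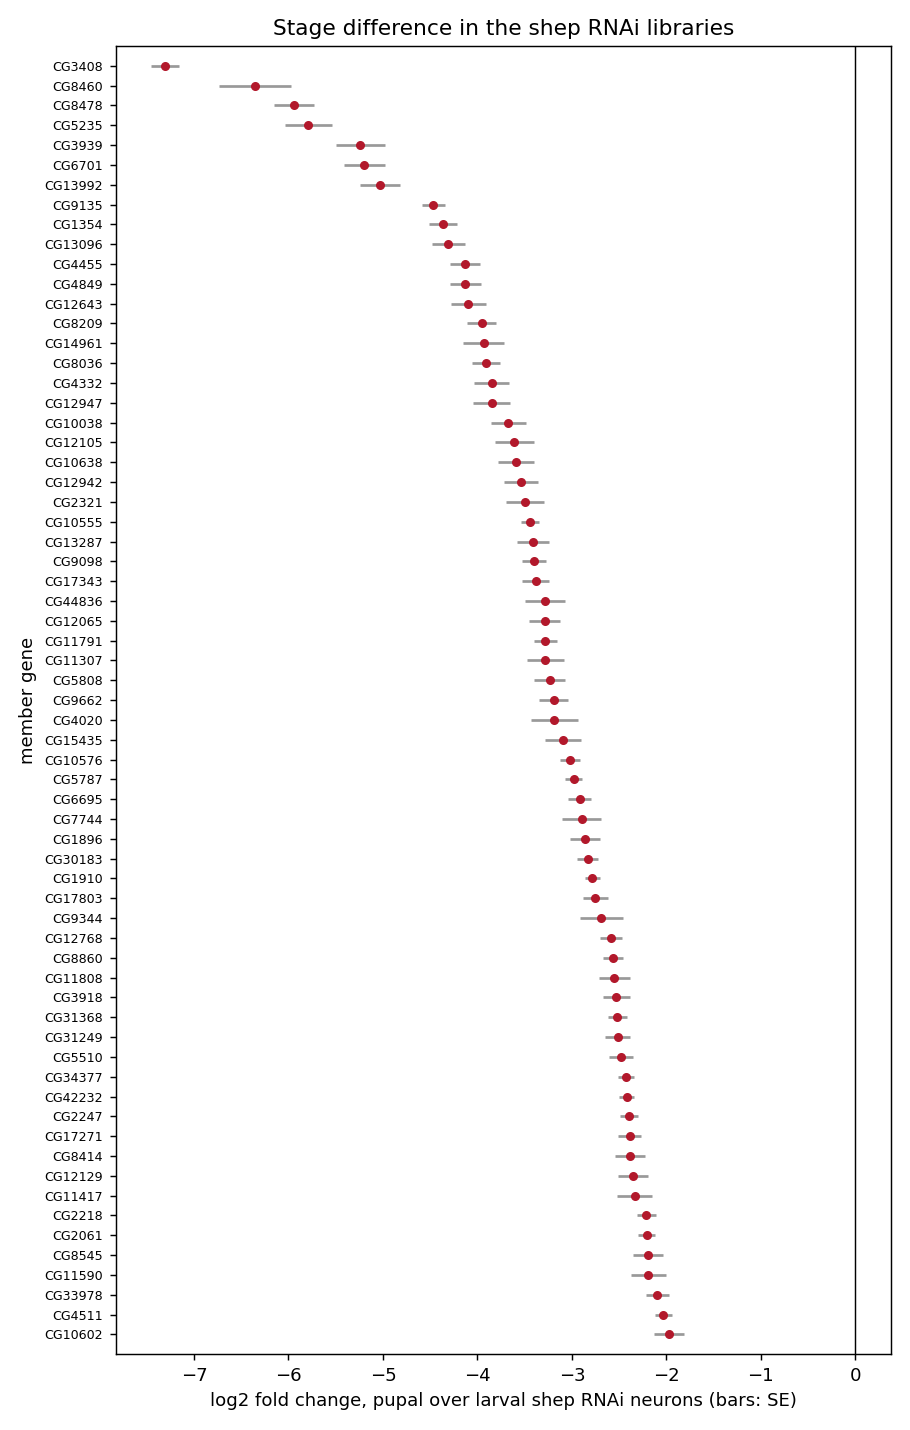
Log2 fold change of each of the 65 genes in pupal over larval shep RNAi neurons from the edgeR fit of 6 libraries (points) with its standard error (bars). All points lie left of 0, between -1.97 for CG10602 and -7.31 for CG3408.

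Most listed genes of neuroblasts and of dividing cells were also lower in the pupal RNAi libraries. Of the neuroblast list, 14 of 15 tested genes were called lower in pupal RNAi neurons and none higher, with a median log2 fold change of -5.87. Its defining genes ase and wor averaged 0.357 and 0.304 CPM in pupal RNAi neurons, against 132 and 135.5 CPM in larval RNAi neurons. The list summed to 5202 to 6213 CPM in pupal RNAi and 36730 to 42110 CPM in larval RNAi libraries, most of it from pros, which is also expressed in daughter cells and neurons. Of 28 cell cycle and DNA replication genes, 27 were called lower and none higher, with a median of -5.03 and sums of 107 to 133 CPM in pupal RNAi and 2125 to 2290 CPM in larval RNAi libraries. Their part in the members' result was not tested.

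Of 19 ribosome biogenesis genes, 14 were called lower and 1 higher in pupal RNAi neurons, with a median of -0.998. Zinc finger genes with a ZAD or other C2H2 domains had 13 of 20 tested genes lower and 3 higher. Of 8 tested glial genes, 5 were called lower and 3 higher. In the neuron list, 7 of 10 genes were called higher and 2 lower, and nSyb had a log2 fold change of 3.4 with an SE of 0.083 (edgeR adjusted p = 6.43e-23). By the thresholds that chose the members, 12 of 16 neuroblast, 13 of 28 cell cycle, 1 of 19 ribosome biogenesis, 2 of 22 zinc finger and 2 of 9 glial genes would have been taken in control neurons, and none of the 10 neuron genes.

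BG3 cells are independent of the libraries that chose the members, and most members were also found there. With GFP dsRNA, 45 of the 65 members, 69.2%, had a mean of at least 20 CPM, 9 lay between 5 and 20 CPM, 4 between 1 and 5 CPM, and 7, or 10.8%, under 1 CPM. Among the 820 other CG genes at the same larval level, 65.5% reached 20 CPM and 13.9% were under 1 CPM in BG3 cells, so the members' shares were close to those. Among the 435 named genes taken by the same thresholds, 83.7% reached 20 CPM and 8.51% were under 1 CPM. Of 112 CG genes taken by the mirrored rule, with a pupal control level of at least 20 CPM and a pupal over larval ratio of at least 8, 8.93% reached 20 CPM and 67.0% were under 1 CPM. These shares over genes are descriptions of 1 cell line. Levels in BG3 cells and in neurons were compared as CPM, with no scaling fitted between them, so modest differences are uncertain.

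The 22 members that were higher in BG3 cells with GFP dsRNA than in larval control neurons made up 33.8% of them. That share was 26.5% for the other CG genes at the larval level and 43.9% for the named genes taken by the same thresholds. Over all genes in the table it was 33.5%, but their median larval control level was only 0.74 CPM, so they are an unlike set. Of the members, 6 had at least 2 times the larval level after 0.5 CPM was added to both. CG6701 differed most, with 241, 213 and 265 CPM in BG3 cells with GFP dsRNA, against 41.7, 27.7 and 22.5 CPM in larval control libraries. All its BG3 values were above all its neuronal values, and its pupal control mean was 0.364 CPM. CG42232 was the most abundant member in BG3 cells at 594 ± 33.6 CPM with GFP dsRNA (SD, n = 3). CG1910 at 197 CPM, CG4511 at 183 CPM and CG8036 at 182 CPM came after CG6701.

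The 7 members under 1 CPM in BG3 cells with GFP dsRNA were CG34377, CG9098, CG13992, CG4020, CG13287, CG12105 and CG44836. CG34377 had no count in the 3 BG3 libraries with GFP dsRNA, where a count of 0 over the group allows up to 0.316 CPM, against 364 ± 13.0 CPM in larval control neurons (SD, n = 3). In BG3 cells with shep dsRNA its levels were 0.394, 0 and 0.236 CPM. CG13287 had no count in any of the 6 BG3 libraries, which allows up to 0.134 CPM, against 35.0 ± 4.235 CPM in larval control neurons (SD, n = 3). CG9098 averaged 0.208 CPM with GFP dsRNA and 116 CPM in larval control neurons. These limits cover counting error only.

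Genes in the band under 1 CPM were somewhat longer, with a median of 3078 exonic bases and 7 exon blocks, against 2450 bases and 4 blocks in the 45 members with at least 20 CPM in BG3 cells. Their median larval over pupal ratio in controls was 19.4, against 12.1 in those 45 members. With 7 genes in the band, these medians are given without a test.

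**Figure D3:**
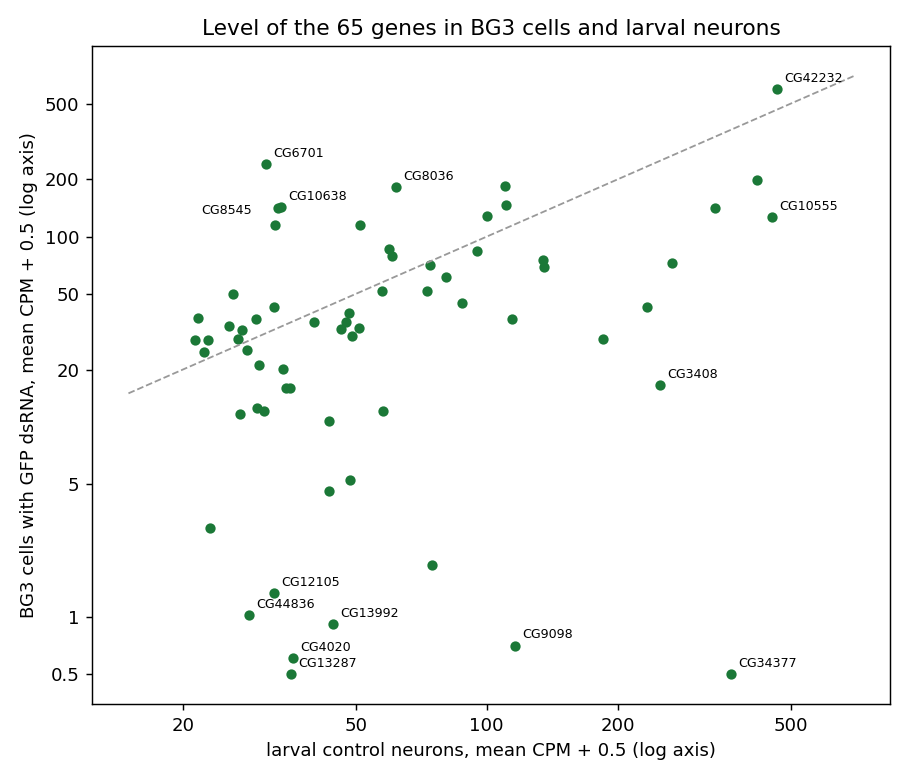
Mean level of the 65 genes in BG3 cells with GFP dsRNA (vertical) against larval control neurons (horizontal), as CPM + 0.5 on log axes, 1 point per gene, with equal levels on the dashed line. CG6701 stands furthest above the line, and 7 genes including CG34377 and CG13287 lie at the bottom, under 1 CPM in BG3 cells.

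For 9 members, the RefSeq gene table gives a synonym that points to a protein of known role, and for the other 56 no role is given here. CG13096 (UTP30), CG8545 (NOP2) and CG8414 (NOL9) carry the names of yeast or human proteins of ribosome assembly. CG8545, named for an rRNA methyltransferase in human, had 141 ± 9.65 CPM in BG3 cells with GFP dsRNA, 3.38 ± 0.298 CPM in pupal control and 32.5 ± 1.11 CPM in larval control neurons (SD, n = 3 each). CG13096 had 114 CPM in BG3 cells, 1.58 CPM in pupal control and 50.7 CPM in larval control neurons, and CG8414 had 36.3, 2.77 and 29.0 CPM in the same BG3, pupal and larval groups. All 3 were higher in BG3 cells than in larval neurons, as were 19 of the 19 genes of the ribosome biogenesis list.

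CG10576 (dPA2G4), whose human counterpart is a proliferation-associated protein, had 147 CPM in BG3 cells, 11 CPM in pupal control and 110.0 CPM in larval control neurons. CG17343 (Cdc26) bears the name of a yeast subunit of the anaphase-promoting complex, which drives exit from mitosis. It had 11.6 CPM in BG3 cells, 2.75 CPM in pupal control and 57.2 CPM in larval control neurons, whereas 25 of 28 cell cycle genes were higher in BG3 cells than in larval control neurons. All of its exonic bases overlap another gene on the opposite strand, CG10702, so its counts are uncertain. CG4849 (EFTUD2), a spliceosomal GTPase in human, had 35.0 CPM in BG3 cells, 1.07 CPM in pupal control and 46.9 CPM in larval control neurons.

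Among enzymes, CG8036 (Transk), a transketolase of the pentose phosphate pathway, had 182 CPM in BG3 cells, 2.35 CPM in pupal control and 61.3 CPM in larval control neurons. CG10638 (AKR), an aldo-keto reductase, had 142, 1.46 and 33.1 CPM in the same BG3, pupal and larval groups. CG2247 (FBXL5), named for an F-box protein of a ubiquitin ligase that senses iron in human, had 68.7, 15.3 and 135 CPM in those BG3, pupal and larval groups. Of the 9 members with such a synonym, 6 had a higher mean in BG3 cells than in larval control neurons, beside 22 of all 65 members (33.8%). The 9 were picked after values were seen, so this count describes them alone. CG2218 (UIP5), CG31368 (Salsa), CG11307 (moto) and CG5808 (UKL) also carry name-like synonyms but were not among the 9. Each of those was lower in BG3 cells than in larval control neurons.

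To ask how the members responded to loss of shep, RNAi neurons were compared with control neurons of the same stage in an edgeR quasi-likelihood fit of the 12 neuron libraries. The reference libraries in these comparisons are those that chose the members for low pupal and high larval control values, so a higher pupal or lower larval RNAi level is a description and supports nothing about the members as a class. In pupal neurons, 7 of the 65 members rose with shep RNAi and none fell at an adjusted p under 0.05. Of all 8784 genes tested, 7.65% were called, 3.48% higher and 4.17% lower. Before adjustment, 17 members were higher and 3 lower at a p under 0.05 in edgeR, 30.8% of the members beside 22.4% of all tested genes. DESeq2 called the same 7 members higher and none lower. The members' median log2 fold change was 0.15, against 0.01 for all tested genes, and 47 of the 65 had a positive sign.

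CG34377, on 3R from 22308663 to 22324094 of dm6 on the minus strand, was the member with the smallest p in pupal neurons. It had 39.0, 36.6 and 38.8 CPM in pupal RNAi libraries, against 16.1, 17.7 and 21.0 CPM in pupal control libraries, a log2 fold change of 1.08 with an SE of 0.105 (edgeR adjusted p = 4e-07). The RNAi libraries were all above the controls, and both were far below the larval level. CG42232, on 3R from 16458280 to 16469663, had 49.4, 44.0 and 49.5 CPM in pupal RNAi libraries, against 39.0, 31.1 and 34.2 CPM in pupal control libraries, a log2 fold change of 0.49 with an SE of 0.0898 (edgeR adjusted p = 0.00129). Its groups did not overlap either, and the calls of CG34377 and CG42232 held in all 12 fits that left out 1 library.

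The other 5 calls were weaker. CG17271 had 7.07, 5.60 and 7.98 CPM in pupal RNAi libraries, against 4.33, 5.09 and 4.55 CPM in pupal control libraries (log2 fold change 0.58, edgeR adjusted p = 0.0311). CG33978, the one member on the fourth chromosome, had 6.51, 7.61 and 7.03 CPM in pupal RNAi libraries, against 4.91, 5.20 and 3.49 CPM in pupal control libraries (0.66 on the log2 scale, edgeR adjusted p = 0.0360). CG1896 had 2.73, 2.22 and 2.43 CPM in pupal RNAi libraries, against 1.29, 1.38 and 1.48 CPM in pupal control libraries (0.86 on the log2 scale, edgeR adjusted p = 0.0386). In these 3 genes every RNAi library was above every control library. CG10555 had 29.8, 22.7 and 24.5 CPM in pupal RNAi libraries, against 18.1, 19.9 and 22.1 CPM in pupal control libraries (0.39 on the log2 scale, edgeR adjusted p = 0.0388). CG13287 had 2.64, 1.48 and 2.16 CPM in pupal RNAi libraries, against 1.40, 1.06 and 0.529 CPM in pupal control libraries (1.12 on the log2 scale, edgeR adjusted p = 0.0462), and its log2 fold change rests on 28, 14 and 16 counts with RNAi and 12, 10 and 5 in controls. Both kept their groups apart by a narrow margin.

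Each of these 5 calls was lost in 4 or more of the 12 fits without 1 library, with adjusted p-values of up to 0.280, and all 5 were lost when the 6 pupal libraries were fitted alone. CG17271 and CG1896 were also lost without the filter on low counts, and CG13287 with column totals. Of the 7 calls, 2 were left without pupal RNAi replicate 1 or 3, and 3 without pupal control replicate 1 or 3. In 15 members all pupal RNAi libraries were above all pupal controls in CPM from column totals, and in 3 all were below. They made up 27.7% of the members, beside 23.9% of all tested genes (10.8% higher and 13.1% lower). Among the 435 named genes taken by the same thresholds, 31 (7.13%) rose and 13 (2.99%) fell. Among the 820 other CG genes at the larval level, 29 (3.54%) rose and 32 (3.9%) fell. The control libraries that are the reference here also chose the named genes for low pupal values, so their counts are descriptions too. The neuroblast list summed to 5202 to 6213 CPM in pupal RNAi and 3484 to 4167 CPM in pupal control libraries, with pros at 5241 and 3537 CPM. Of its 15 tested genes, pros, brat and klu were called higher with pupal RNAi and none lower. In the same RNAi and control groups ase averaged 0.357 and 0.513 CPM and wor 0.304 and 0.442 CPM, and neither was called. The cell cycle list summed to 107 to 133 CPM with RNAi and 101 to 124 CPM in controls. Their part in the members' result was not tested.

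**Figure D4:**
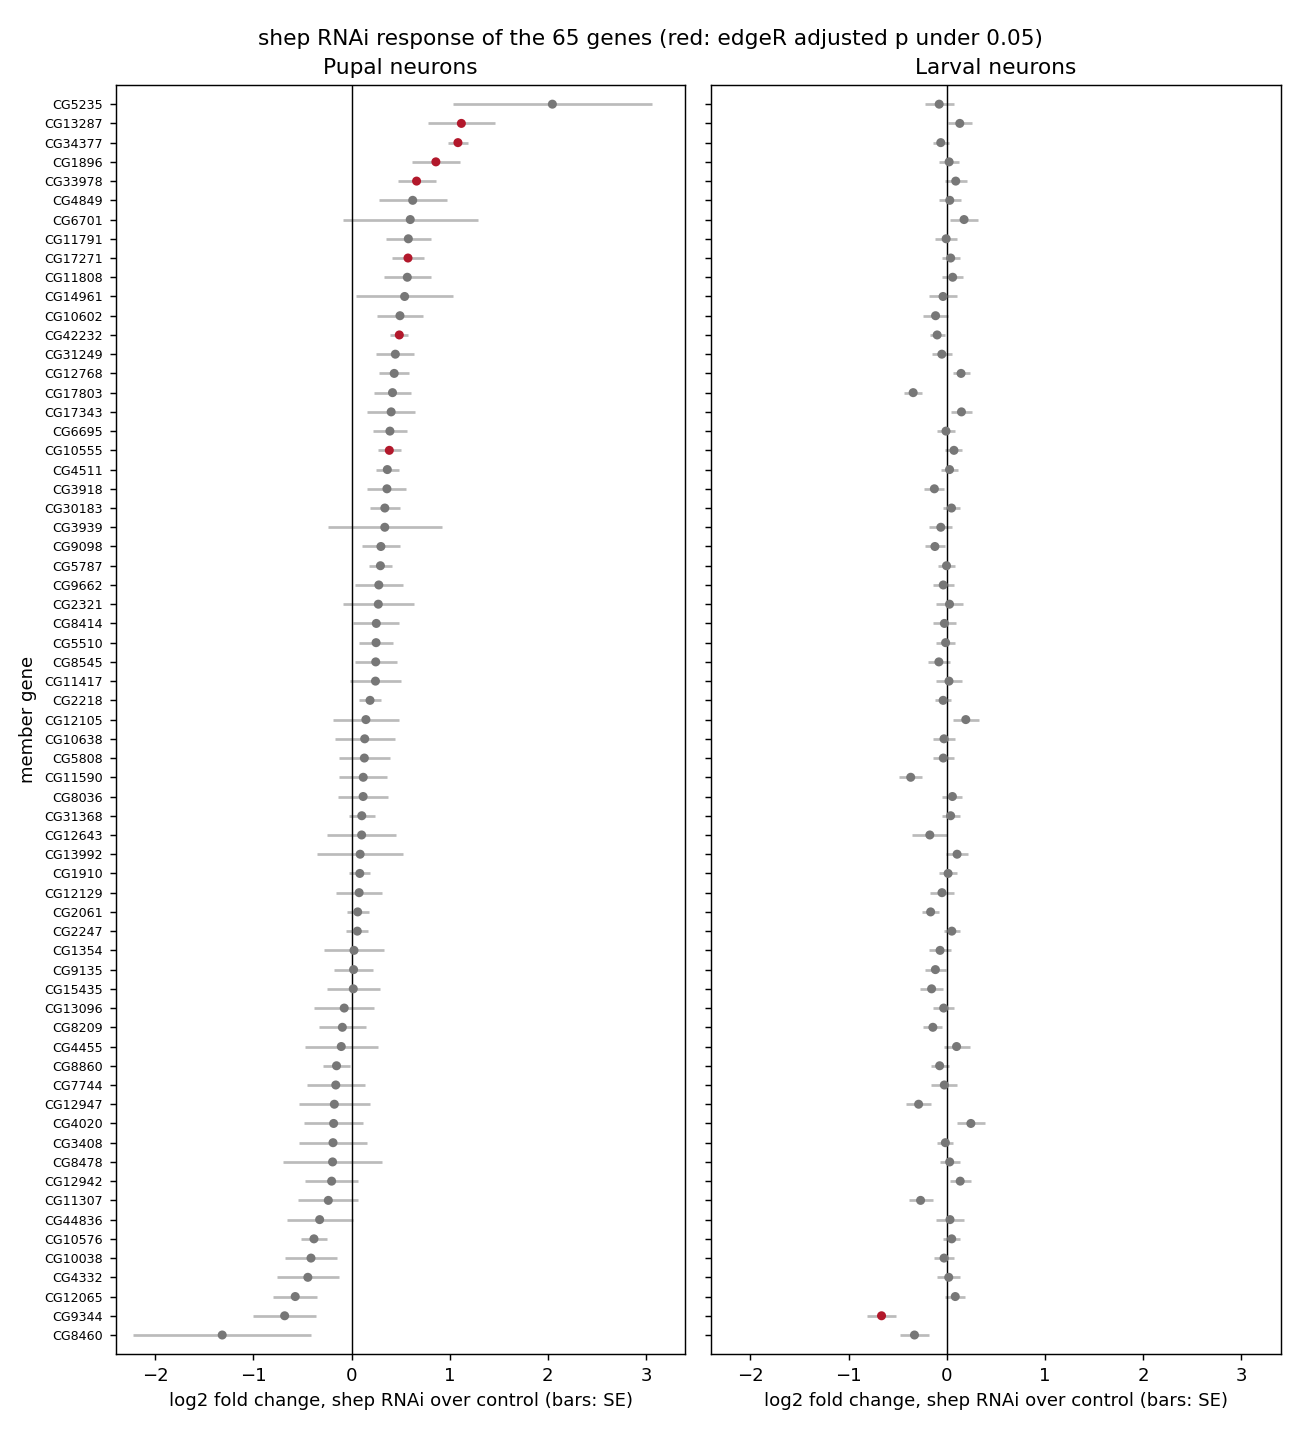
Log2 fold change of shep RNAi over control for each of the 65 genes in pupal (left) and larval (right) neurons, with standard errors as bars and genes called at an edgeR adjusted p under 0.05 in red. In pupal neurons 7 genes are red and right of 0, and in larval neurons 1 gene, CG9344, is red and left of 0. The pupal and larval control libraries also chose the genes.

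In larval neurons 1 member fell and none rose, beside 0.364% of the 8784 tested genes called in either direction (0.171% higher and 0.194% lower). The gene was CG9344, on 2R from 20977056 to 20977600 of dm6, with 16.7, 15.4 and 17.5 CPM in larval RNAi libraries, against 26.1, 28.0 and 26.5 CPM in larval control libraries. The groups did not overlap, and the log2 fold change was -0.66 with an SE of 0.147 (edgeR adjusted p = 0.0466). Its call was lost in 6 of the 12 fits without 1 library, with an adjusted p of up to 0.315: without any 1 of larval RNAi replicates 1 to 3, without larval control replicate 2 or 3, and without pupal control replicate 3. It was also lost with column totals, at an adjusted p of 0.0523. CG9344 was at 1.41, 0.952 and 2.43 CPM in pupal RNAi libraries, against 3.74, 1.49 and 2.44 CPM in pupal control libraries, which overlapped.

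The next smallest p-values in larval neurons were those of CG17803, at -0.34 on the log2 scale (SE 0.0950, edgeR adjusted p = 0.153), and CG11590 (log2 fold change -0.37, SE 0.119, edgeR adjusted p = 0.274). CG17803 had 61.6, 57.6 and 53.0 CPM in larval RNAi libraries, against 71.3, 77.7 and 74.6 CPM in larval control libraries, with no overlap. Before adjustment, no member was higher and 6 were lower at a p under 0.05 in edgeR, 9.23% of the members and so near the 8.69% of all tested genes. DESeq2 called CG9344 alone. In 9 members every larval RNAi library was below every control in CPM from column totals, and in none above. They made up 13.8% of the members, beside 16.2% of all tested genes (4.79% higher and 11.4% lower). The median log2 fold change of the members was -0.01, with sums of 5427 to 5697 CPM in larval RNAi and 5656 to 6108 CPM in larval control libraries.

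The pupal minus larval difference between the RNAi responses passed for 2 members, both positive, beside 0.364% of all 8784 tested genes (0.102% higher and 0.262% lower). Before adjustment it was positive in 14 members and negative in 2 at a p under 0.05, 24.6% of the members beside 10.4% of all tested genes. It was 1.145 on the log2 scale for CG34377 (SE 0.133, edgeR adjusted p = 8.72e-05) and 0.58 for CG42232 (SE 0.118, edgeR adjusted p = 0.0201). In larval neurons CG34377 had 352, 366 and 303 CPM with RNAi, against 378, 361 and 352 CPM in control libraries, which overlapped. CG42232 had 407, 435.5 and 425 CPM with larval RNAi, against 450, 462 and 479.5 CPM in larval control libraries, where every RNAi library was lower. The call of CG34377 held in all 12 fits without 1 library, and that of CG42232 in 5 of them, with an adjusted p of up to 0.0865. The pupal and larval control libraries enter both this difference and the choice of members.

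In BG3 cells 57 members had enough counts for the test, and 1 rose with shep dsRNA while none fell, beside 5.41% of 6816 tested genes (3.35% higher and 2.07% lower). The gene was CG11791, on 3R from 25049616 to 25053074 of dm6, with 107, 106 and 113 CPM with shep dsRNA, against 79.0, 91.4 and 80.9 CPM with GFP dsRNA. The groups did not overlap, and the log2 fold change was 0.325 with an SE of 0.0889 (edgeR adjusted p = 0.0320). The call was lost in 5 of 6 fits without 1 library, being kept without GFP dsRNA replicate 2, and it was lost with DESeq2 (adjusted p = 0.0606). These libraries took no part in choosing the members. With replicate number as a block, more members and more genes were called in BG3 cells, as given in the closing section.

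The median log2 fold change of the 57 members in BG3 cells was 0.04, against -0.01 for all tested genes. CG12065 had 106, 95.9 and 100.3 CPM with shep dsRNA, against 120, 109 and 114 CPM with GFP dsRNA (log2 fold change -0.23, edgeR adjusted p = 0.0938), with no overlap. CG4511 had 216, 211 and 231 CPM with shep dsRNA, against 167, 176 and 207 CPM with GFP dsRNA (log2 fold change 0.21, edgeR adjusted p = 0.102), with no overlap either. Before adjustment, 5 members were higher and 1 lower at a p under 0.05 in the BG3 fit, 10.5% of the 57 members beside 19.0% of all tested genes. Of the 57, 13 had every shep dsRNA library above every GFP dsRNA library in CPM from column totals, and 2 below. They made up 26.3%, beside 22.5% of all tested genes (15.6% higher and 6.88% lower). CG34377, called in pupal neurons, was among the 8 members with too few counts, and CG42232 had a log2 fold change of 0.14 with an SE of 0.0689 (edgeR adjusted p = 0.255).

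**Figure D5:**
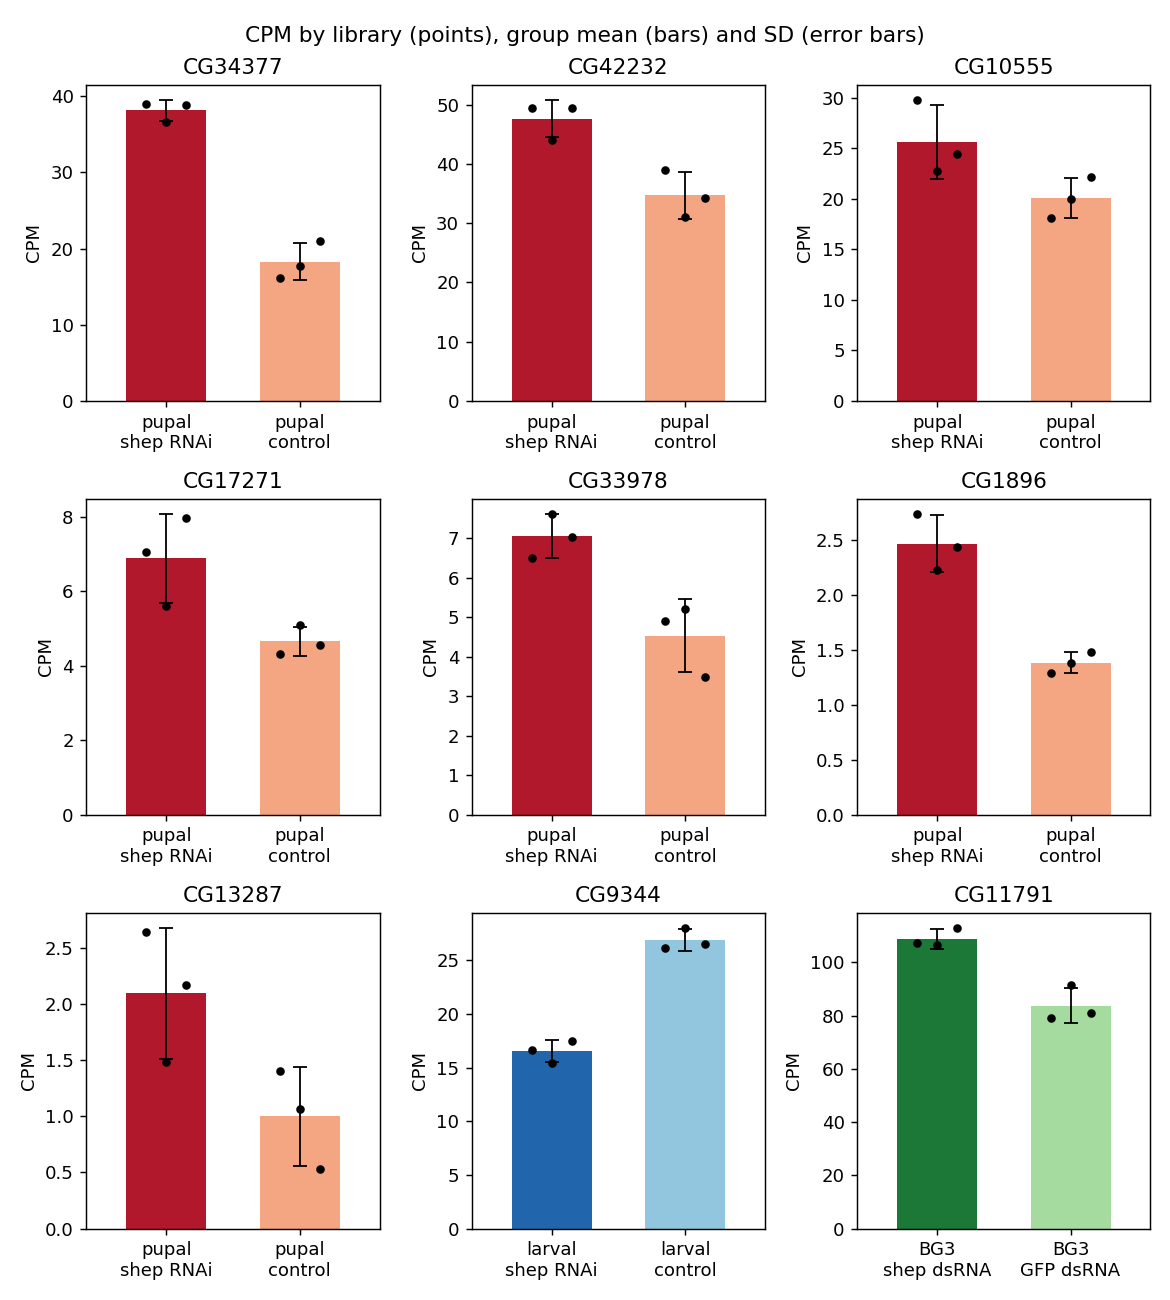
CPM of each library (points), with the group mean (bars from 0) and SD (error bars, n = 3), for the 9 genes called on loss of shep, each in the 2 groups of its comparison, knockdown left and control right. CG34377 has 36.6 to 39.0 CPM in pupal RNAi and 16.1 to 21.0 CPM in pupal control neurons, and of the 9 only CG9344, in larval neurons, is lower with knockdown.

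All 65 members are annotated as protein-coding. Their median of 2340 exonic bases was below that of the 820 other CG genes at the larval level (2960) and near that of the 435 named genes taken by the same thresholds (2530). Their median gene span was 2800 bases, against 4150 for the other CG genes and 12800 for the 112 CG genes of the mirrored rule. The 3R arm holds 20 of the members, 30.8%, and 24.6% of the 885 CG genes that reached the larval level. The members were spread over all major arms, with 12 on X, 11 on 2L, 11 on 3L, 10 on 2R and 1 on chromosome 4.

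No 2 members are immediate neighbours. Within 50000 bases of each other lie CG1896 and CG1910 on 3R, both on the plus strand and 2464 bases apart with 2 protein-coding genes between them. CG8478 and CG12947 lie 13928 bases apart on 3R, and CG13992, CG9098 and CG9135 lie in a row on 2L with 39611 and 38461 bases between them. CG1896 and CG1910 had different levels, with 1.38 and 34.7 CPM in pupal control and 30.2 and 417 CPM in larval control neurons. In BG3 cells CG9098 and CG13992 were under 1 CPM while CG9135 had 72.3 CPM with GFP dsRNA.

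Exons of 27 members overlap those of another gene, 26 of them on the opposite strand alone, and CG10602 overlaps mRpL13 on its own strand. The overlap covers over 50% of the exonic bases in 5 members, CG2061, CG17343, CG12947, CG8860 and CG5808. The strand setting of the counting was not given in the sources used here. It is therefore not known whether reads of these genes and their partners were kept apart.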

How the data were processed

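The authors deposited unnormalized counts of reads per gene. The submitters' processing notes name cutadapt 1.10, HISAT2 2.0.4, featureCounts 1.5.0-p3 and the build dm6. Strand use, treatment of multiply mapped reads and the gene annotation behind the counts are not given in the sources used here. Symbols and coordinates of 17210 of the 17402 identifiers came from Ensembl release 115, and 2102 genes had no count in any library.

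CPM was computed from column totals, and overlap between libraries was judged in that CPM, without the scaling of the tests. Tests used edgeR 4.0.16 in R 4.3.3 (filterByExpr, TMM, robust quasi-likelihood fits, 2-sided, Benjamini-Hochberg over all tested genes, adjusted p under 0.05), with DESeq2 1.42.0 as an alternative. The edgeR fits were also run on simulated data, and the outcome is not given here. The stage comparison used the 6 RNAi libraries, the neuron RNAi comparisons all 12 neuron libraries, and the BG3 comparison its 6 libraries. Each SE was derived as the absolute log2 fold change divided by the square root of the quasi-likelihood F statistic. Replicate pairs differed by more than sampling noise, with a chi-square per degree of freedom of at least 4.98. Python 3.11.15 with pandas 2.3.3 served for tables and matplotlib 3.10.9 for figures.

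The members and the gene lists were chosen with earlier results of these data known. Named members were the most abundant in larval and BG3 cells, those called or with the smallest p in a comparison, and the extremes of the stage change. Roles from RefSeq synonyms were added after values were seen. Protein sequences were not analysed here.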

Additional observations from a re-analysis of the deposited data

Results flagged for a closer look

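CG34377 and CG42232 stood out because their response to shep RNAi differed between the stages by a test of the difference itself. The pupal minus larval difference in the log2 fold change was 1.145 for CG34377, which had 1.08 in pupal and -0.06 in larval neurons. It was 0.58 for CG42232, which had 0.49 in pupal and -0.10 in larval neurons. The adjusted p-values from edgeR were 8.72e-05 and 0.0201. The call of CG34377 held in all 12 fits that left out 1 library, but that of CG42232 in only 5 of the 12. The control libraries in these differences also chose the genes, so both values are descriptions.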

How the results depend on the processing

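The number of members moved with the rule: 102 with a larval minimum of 10 CPM, 37 with 40 CPM, 152 with a ratio of 4, 27 with a ratio of 16 and 34 with CPM from TMM library sizes. The stage count in RNAi neurons stayed at 65 under every alternative run. In pupal neurons 2 members were called when the 6 pupal libraries were fitted alone, and 2 to 7 when 1 library was left out. In larval neurons column totals (chosen after seeing the data) gave 0, and leaving out 1 library gave 0 to 1. Without 1 library the stage difference of the response passed for 1 to 2 members, and the BG3 response for 0 to 1. In BG3 cells DESeq2, run without the filter on low counts, gave 0. With replicate number as a block BG3 cells gave 3 called members (2 higher and 1 lower), and 616 called genes in all against 369 without it. The block left the member counts of the other comparisons unchanged. Same-numbered libraries deviated together weakly or not at all, with correlations of -0.106 to 0.159 in neurons and 0.041 to 0.111 in BG3 cells. Those in BG3 cells were all positive, so a weak shared part there is not excluded. The labels state no pairs, and the numbers were not taken as pairs. Of the alternatives for single named genes, 508 kept their side of the threshold, 56 lost the call and 2 gained it. Those that kept their side include the stage comparison, where all 65 members stayed called, and genes with no call to lose. All 56 losses fell on calls for loss of shep, so the pooled share does not measure how stable those calls were. The members' median standard error of a log2 fold change was 0.245 in pupal and 0.107 in larval neurons.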
